A study of Mus musculus with 24 samples.

Results

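The clustered histone genes are the mouse genes, named Hist1h to Hist4h in the count tables, that encode the bulk of the H1, H2A, H2B, H3 and H4 proteins. They were taken by symbol, without regard to case, and 3 pseudogenes were left out, which gave 67 genes among 49960 symbols. The 67 comprised 6 H1, 18 H2A, 18 H2B, 12 H3 and 13 H4 genes. All 67 were in the table of the 4T07 line, and 65 were in those of D2A1 and EMT6, which lacked Hist1h2bh and Hist1h2bm.

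The study compared quiescent and proliferating cancer cells taken from the same mouse mammary tumour. Cells of the mammary carcinoma lines 4T07, D2A1 and EMT6 had been transduced with mCherry and with mVenus-p27K, a fluorescent reporter built on the cyclin-dependent kinase inhibitor p27, whose level is high in resting cells. Female Balb/cJ mice received 250000 cells of a line in the mammary fat pad, and on day 14 the tumours were removed, digested, stained for the blood cell marker CD45 and with DAPI, and sorted. Libraries of p27K high and of p27K negative cells came from each of 4 tumours per line, 24 libraries in all, and every group carried both constructs; no drug or other treatment of the mice is named in the labels. The sources used here give neither the ages of the mice nor the limits of the sort gates. Each line was sequenced in a run of its own (D2A1 run 1, EMT6 run 2, 4T07 run 3) and counted in a table of its own, so line, run and table cannot be told apart.

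Histones are the proteins that package DNA. Most clustered histone genes are transcribed in S phase, when new DNA needs new nucleosomes, and their mRNAs end in a conserved stem-loop, bound by the stem-loop binding protein Slbp, in place of a poly(A) tail. Some of these genes also have a downstream poly(A) site, and their tailed mRNAs are known from differentiated or resting cells; Hist1h1c, Hist1h2bc, Hist2h2be and Hist4h4 were listed here as genes of that kind. H1 is the linker histone that binds outside the nucleosome, whereas H2A, H2B, H3 and H4 form its core. Libraries that select poly(A) tails capture the tailed mRNAs and few of the others; the library kit is not given in the sources used here, so levels are stated throughout.

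The stem-loop is shown first because it separates the members by the 3′ end of their annotated transcript. A match to it was found in the GENCODE vM21 transcript (GRCm38) of 45 members and not in the models of the other 22. There were 8 distinct 16-base forms: 1 form was shared by 25 members of the H1, H2A, H2B and H3 classes, and the commonest H4 form by 7 genes. Each window below runs 5′ to 3′ along the mRNA with 5 flanking bases on each side, and capitals mark the stem-loop.
Hist1h1c: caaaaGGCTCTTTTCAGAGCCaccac
Hist1h1d: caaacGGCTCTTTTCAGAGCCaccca
Hist1h1e: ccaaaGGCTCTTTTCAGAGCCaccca
Hist3h2a: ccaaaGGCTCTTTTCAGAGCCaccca
Hist1h3g: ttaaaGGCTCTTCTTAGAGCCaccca
Hist1h4i: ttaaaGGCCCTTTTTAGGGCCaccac
Hist2h4: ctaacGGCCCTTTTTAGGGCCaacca
Hist4h4: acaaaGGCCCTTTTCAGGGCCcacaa
The 3 H1 genes and Hist3h2a carried the same 16 bases. After the stem-loop the annotated transcript of Hist1h1c ran on for 840 bases and held the poly(A) signal AATAAA in its last 50 bases. Hist1h1e ran on for 1153 bases and Hist1h1d for 4884, neither with that signal at its end. Transcripts of Hist3h2a (1643 bases), Hist2h4 (1257) and Hist4h4 (2445) ran on and held the signal, and Hist1h4i ran on for 330 bases without it. In all, 22 members ended within 100 bases of the stem-loop, none of them with AATAAA, and 23 ran on further, 10 of them with it. Hist1h2bc (2 exons, 1156 bases) and Hist2h2be (2620 bases) had no stem-loop in their models. Of the 22 models without a match, 4 held AATAAA in their last 50 bases. Some of the 22 were short, such as that of Hist1h4k at 312 bases. A model that stops early cannot show a stem-loop, so no match does not mean that the gene lacks one.

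The promoters of 4 H1 genes are shown because these genes differed in their change between the gates. They are the RefSeq windows on GRCm38.p6, 300 bases long and reaching 50 bases past the start, at chr13:23738557-23738856 (plus strand) for Hist1h1c, chr13:23622509-23622808 (minus) for Hist1h1e, chr13:23554782-23555081 (plus) for Hist1h1d and chr13:21780576-21780875 (minus) for Hist1h1b. Capitals mark the motifs searched on both strands: the TATA box (TATAAA), the CCAAT box (CCAAT), the H1 box (AAACACA), the octamer (ATTTGCAT), E2F sites (TTTGGCGC, TTTCCCGC, TTTCGCGC or TTTGCCGC) and the cell cycle element CHR (TTTGAA). No motif contains the letters of another.
Hist1h1c: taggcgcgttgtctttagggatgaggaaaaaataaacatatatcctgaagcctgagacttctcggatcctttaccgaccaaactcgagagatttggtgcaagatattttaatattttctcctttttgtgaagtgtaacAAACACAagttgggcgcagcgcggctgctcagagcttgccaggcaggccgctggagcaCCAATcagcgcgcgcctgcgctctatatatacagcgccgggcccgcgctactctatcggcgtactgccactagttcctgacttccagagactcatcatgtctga
Hist1h1e: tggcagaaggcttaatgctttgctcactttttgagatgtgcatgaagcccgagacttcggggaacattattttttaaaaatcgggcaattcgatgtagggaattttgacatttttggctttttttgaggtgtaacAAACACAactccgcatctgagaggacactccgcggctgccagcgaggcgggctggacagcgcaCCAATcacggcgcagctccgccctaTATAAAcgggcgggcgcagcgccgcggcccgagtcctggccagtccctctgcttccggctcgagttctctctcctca
Hist1h1d: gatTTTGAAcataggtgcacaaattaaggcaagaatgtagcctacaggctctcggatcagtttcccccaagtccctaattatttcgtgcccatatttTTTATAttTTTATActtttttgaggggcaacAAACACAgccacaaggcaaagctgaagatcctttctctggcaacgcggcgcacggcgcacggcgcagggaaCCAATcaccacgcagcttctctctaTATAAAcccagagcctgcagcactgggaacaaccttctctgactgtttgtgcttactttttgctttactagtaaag
Hist1h1b: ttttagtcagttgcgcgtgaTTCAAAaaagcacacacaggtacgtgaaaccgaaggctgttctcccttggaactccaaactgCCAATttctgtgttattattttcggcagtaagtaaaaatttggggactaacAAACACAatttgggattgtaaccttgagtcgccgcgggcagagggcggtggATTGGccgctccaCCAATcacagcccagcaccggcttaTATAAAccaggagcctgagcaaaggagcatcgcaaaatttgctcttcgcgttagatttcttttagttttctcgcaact
All 4 windows held the H1 box and the CCAAT box. The exact TATAAA letters were in those of Hist1h1e, Hist1h1d and Hist1h1b and not in that of Hist1h1c, and the CHR letters were in those of Hist1h1d and Hist1h1b. Among the 61 members with a RefSeq window, 85.2% held CCAAT, against 37.4% of all 32851 windows: 100% of the H1, H2A, H2B and H3 windows and 25% of the H4 windows. The TATA box was in 57.4% of member windows against 13.6% of all. The H1 box was in 83.3% of the H1 windows against 7.18% of all, and the octamer in 41.2% of the H2A and 37.5% of the H2B windows against 1.74% of all. E2F letters were in 16.4% of member windows against 2.26%, and CHR letters in 45.9% against 17.9%. A match describes these letters only.

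The 4T07 libraries held 27811997 to 45371953 counts and the EMT6 libraries 13740994 to 20101731. The D2A1 p27K high libraries held 6715332 to 20130969 counts, whereas the p27K negative libraries of tumours 1 to 3 held 1332445, 2105950 and 1797966 and that of tumour 4 held 15607608. In those 3 shallow libraries a single count corresponded to 0.741, 0.467 and 0.553 CPM (the unit of the TMM-scaled counts, corrected for library size). The p27K high library of 4T07 tumour 2 stood apart, with 13481 genes detected against 15072 to 15350 in the other p27K high libraries of that line, and values that it turned or moved most are given also without that tumour. Epithelial keratins and adhesion genes (7 markers) summed to 433 to 688 CPM in 4T07, 609 to 1059 in EMT6 and 62.7 to 604 in D2A1, where Krt5 was at 0 in the p27K high libraries. In 4T07, 15 of 15 macrophage markers fell in p27K high cells (edgeR adjusted p under 0.05), with sums of 565 to 1238 CPM in p27K negative and 167 to 184 in p27K high libraries. The sums were 73.6 to 133 and 144 to 188 CPM in D2A1, and 33.5 to 47.0 and 47.0 to 59.7 in EMT6. Of 10 fibroblast markers 8 were tested in 4T07, where 3 rose and 2 fell, and the 10 summed to 641 to 821 CPM in p27K negative and 1558 to 2373 in p27K high libraries. In D2A1, 2 rose and 5 fell of 10 tested, with sums of 662 to 843 and 657 to 761 CPM. In EMT6, 6 rose and 0 fell of 8 tested, with sums of 5562 to 7676 and 7334 to 9790 CPM. T cell markers summed to at most 13.8 CPM and endothelial markers to at most 28.2 CPM in any library. The part of these other cells in the changes given here was not tested, and in sorted bulk RNA fewer cells of a type and less RNA per cell cannot be told apart.

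Most clustered histone genes were at or near the floor of detection. The members together took 0.00504% to 0.0236% of the counts of a library. Averaged over both gates, the median member stood at 0.129 CPM in 4T07, 0.263 in D2A1 and 0.107 in EMT6, and 12, 12 and 6 members reached 1 CPM. At 0 in all 8 libraries of a line were 9, 8 and 9 members, and 3 (Hist1h2br, Hist2h2aa1 and Hist2h2aa2) were at 0 in every table. Those 3 share at least 99.8% of their 50-base stretches with other transcripts, and reads of near-identical copies may be split or lost by the counting. Over all members the median share was 54.1%, 13 members shared 90% or more and 8 under 10%, among them Hist1h1c (8.5%) and Hist2h2be (0%).

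The linker histone gene Hist1h1c took the largest share of the members' counts in 23 of 24 libraries. It held on average 38.1% of the members' counts in p27K negative and 42.3% in p27K high libraries of 4T07, 46.6% and 71.9% in D2A1, and 56.6% and 73.2% in EMT6. The exception was the p27K high library of 4T07 tumour 2, where Hist1h1c held 16.4% and Hist1h2bc 70.6%. Over the p27K high libraries of 4T07 the mean share of Hist1h2bc was 38.3%, and without tumour 2 the means were 50.9% for Hist1h1c and 27.5% for Hist1h2bc. Per kilobase of transcript its mean level was 21.7 and 43.1 CPM in 4T07, 32.7 and 76.6 in D2A1, and 20.8 and 36.1 in EMT6. The core histone gene with the highest level per kilobase was Hist1h2bc, at 13.7 and 55.6 CPM in 4T07, 8.02 and 13.3 in D2A1, and 5.68 and 8.28 in EMT6. Without tumour 2 the p27K high level in 4T07 was 36.9 CPM per kilobase for Hist1h2bc and 51.0 for Hist1h1c, so the order of the pair there turned on that tumour. No other member averaged over 10 CPM in any line.

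**Figure D1:**
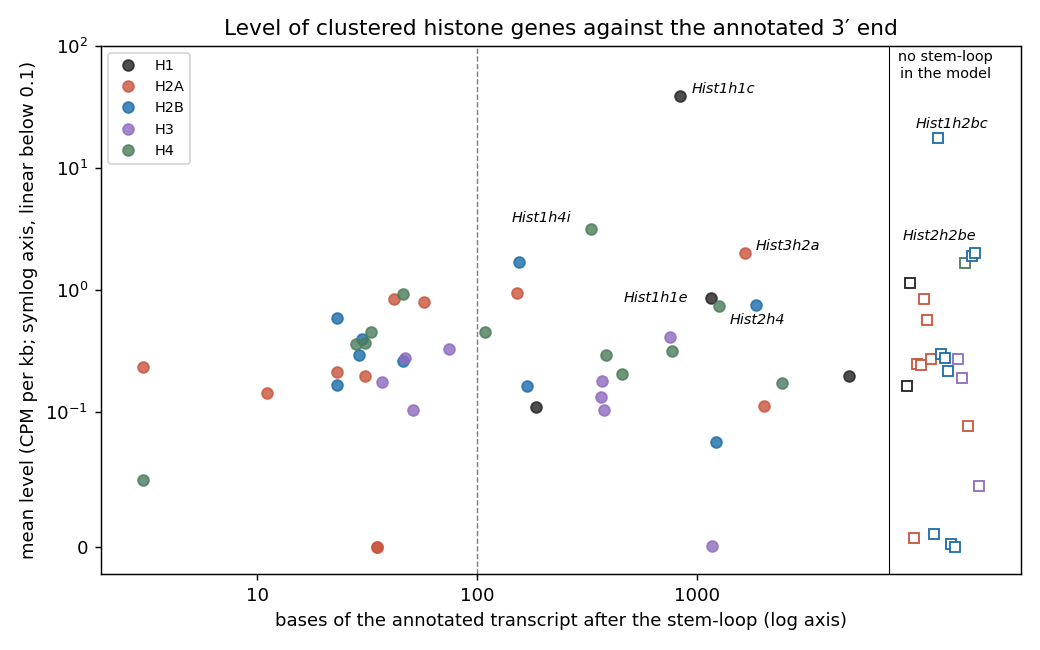
Mean level of each of the 67 clustered histone genes (y axis, CPM per kilobase of the longest coding transcript, averaged over gates and lines, symlog scale) against the number of bases that the annotated transcript runs on after the stem-loop (x axis, log scale). Points are coloured by class, open squares on the right are the 22 genes with no stem-loop in the model, and the dashed line is at 100 bases. Hist1h1c and Hist1h2bc stand above all other genes, and no gene left of the dashed line reaches 1 CPM per kilobase.

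The members with higher levels were mostly those with other annotated 3′ ends, as the plot of level against transcript end shows. Among members that end within 100 bases of the stem-loop, 1, 0 and 0 reached 1 CPM in 4T07, D2A1 and EMT6. Among those that run on, 7, 9 and 4 did, and among those with no stem-loop in the model 4, 3 and 2 did. The medians per kilobase were less far apart. For members that end there, run on or have no stem-loop in the model, they were 0.178, 0.239 and 0.206 CPM in 4T07. Those of D2A1 were 0.364, 0.426 and 0.361. In EMT6 they were 0.233, 0.146 and 0.123, highest in the members that end there, so the medians did not follow one order over the lines. Known RNAs without a poly(A) tail (such as Rmrp, the RNA of an RNA-cleaving enzyme) were present at low levels. The 10 found in all 3 tables summed to 2.44 to 11.9 CPM in p27K negative and 1.65 to 3.75 in p27K high 4T07 libraries, 2.80 to 5.93 and 3.80 to 10.0 in D2A1, and 13.9 to 17.7 and 13.2 to 19.0 in EMT6. Rmrp fell in 4T07 by 2.85 ± 0.66 (log2, SE; edgeR adjusted p = 0.0108) and had a change of -0.43 ± 0.54 in D2A1 and -0.07 ± 0.21 in EMT6 (edgeR adjusted p for a difference between lines = 0.0131). No other RNA of this kind that was tested, of 3 tested in 4T07, 4 in D2A1 and 6 in EMT6, was called.

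The gate comparison asked which clustered histone genes differ between resting and proliferating cells of a tumour. After the filter on low counts, 18 members were tested in 4T07, 11 in D2A1 and 8 in EMT6. That filter can pass a gene on its levels in a single gate, which tilts the calls of low members. The tumour was a block in edgeR's quasi-likelihood test, so p-values reflect how much the difference varied from tumour to tumour. In 4T07, 2 members rose (Hist1h1c and Hist1h2bc) and 2 fell (Hist1h1e and Hist2h2be), where 22.1% of all 12831 genes tested rose and 23.6% fell. In D2A1, 1 rose (Hist1h1c) and 1 fell (Hist2h2be), against 14.9% and 14.6% of all genes. In EMT6, 3 rose (Hist1h1c, Hist1h2bc and Hist3h2a) and 2 fell (Hist1h1d and Hist2h2be), against 24.1% and 25.1%. The median log2 change of the tested members was -0.18, -0.24 and 0.05 in the 3 lines, and that of all genes tested was -0.0033, 0.02 and 0.02. The counts of calls were thus small in each direction, and in 4T07 and D2A1 the called shares of the members lay below those of all genes.

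**Figure D2:**
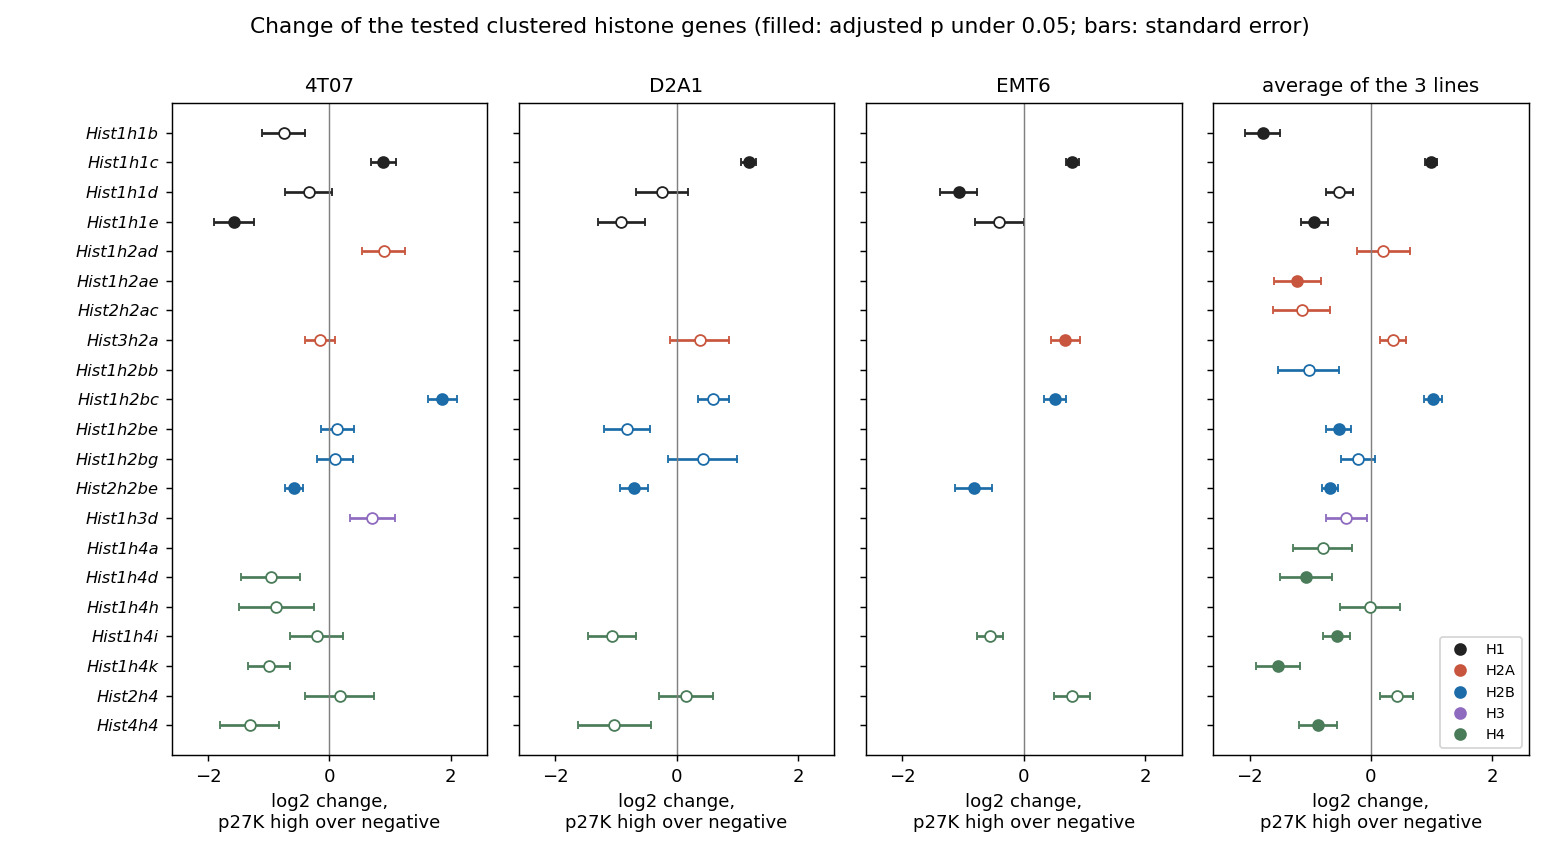
Log2 change in p27K high over p27K negative cells (x axis) of each tested clustered histone gene (y axis), by line and for the average of the 3 lines; bars are standard errors, filled points have an edgeR adjusted p under 0.05, and colours give the class. Hist1h1c is called to the right of 0 in every panel and Hist2h2be to the left of 0 in every panel; Hist2h2bb, counted in 4T07 alone, is not drawn.

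Among the linker histones, Hist1h1c (encoding H1.2; a single exon at chr13:23738808-23740367, plus strand, of GENCODE vM21 on GRCm38) rose in all 3 lines. In 4T07 tumours 1 to 4 its level was 31.5, 29.1, 40.5 and 34.2 CPM in p27K negative and 75.9, 30.1, 96.8 and 65.8 CPM in p27K high cells. Tumour 2 of 4T07 had nearly equal levels in its 2 libraries, and in the other 3 tumours the p27K high library was above every p27K negative library. The log2 change was 0.89 ± 0.20 (SE, n = 4 pairs; edgeR adjusted p = 0.00944), and 1.16 ± 0.08 without tumour 2. Without tumour 1 it was 0.76 ± 0.24 and missed the threshold (edgeR adjusted p = 0.0580).

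In D2A1 Hist1h1c stood at 39.3, 44.4, 71.9 and 48.4 CPM in p27K negative and at 99.1, 103, 183 and 92.3 CPM in p27K high cells. The gates did not overlap, although the shallow p27K negative libraries rest on 53, 95 and 130 counts. The change was 1.19 ± 0.13 (edgeR adjusted p = 1.14e-05). In EMT6, whose tumours carry the numbers 0, 1, 2 and 4, the levels were 27.6, 39.7, 29.1 and 33.4 CPM in p27K negative and 65.7, 54.8, 51.1 and 53.5 CPM in p27K high cells, again with no overlap. The change was 0.80 ± 0.11 (edgeR adjusted p = 0.000253). Hist1h1c was thus higher in the p27K high library of 12 of 12 tumours.

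Of the other 5 linker histones, Hist1h1e fell in 4T07 and Hist1h1d in EMT6, and no other was called in a line. Hist1h1e, which encodes H1.4, had 1.16, 2.51, 2.99 and 1.24 CPM in p27K negative and 0.442, 0.853, 0.602 and 0.603 CPM in p27K high cells of 4T07. All 4 p27K negative libraries were above all 4 p27K high ones, and the change was -1.57 ± 0.33 (edgeR adjusted p = 0.00700). In D2A1 the change was -0.91 ± 0.39 and in EMT6 -0.40 ± 0.40, both past no threshold (edgeR adjusted p = 0.0941 and 0.437) and with overlapping gates. Reads of Hist1h1e may be mixed with those of Hist1h2be, whose annotated exons overlap it on the same strand.

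Hist1h1d, which encodes H1.3, fell in EMT6, where it had 1.46, 0.998, 0.922 and 0.819 CPM in p27K negative and 0.461, 0.59, 0.499 and 0.408 CPM in p27K high cells. The gates did not overlap, and the change was -1.08 ± 0.30 (edgeR adjusted p = 0.0149). That call ended in DESeq2's test (adjusted p = 0.126) and without tumour 0 (-0.87 ± 0.37; edgeR adjusted p = 0.0601). It was not called in 4T07 (-0.34 ± 0.38, and 0.00095 ± 0.23 without tumour 2) or D2A1 (-0.24 ± 0.43), where in 2 of 4 tumours of each line the p27K high library was the higher one. Hist1h1b, which encodes H1.5, was tested in 4T07 alone (-0.75 ± 0.36; edgeR adjusted p = 0.122), with -0.49 ± 0.31 without tumour 2. Its p27K negative libraries had 0.978, 1.53, 1.97 and 0.88 CPM in 4T07, 0.741, 1.87, 2.77 and 1.47 in D2A1, and 0.937, 0.47, 0.98 and 0.585 in EMT6. The p27K high libraries had 0.605, 0.487, 1.24 and 0.826 CPM in 4T07, 0.401, 0.123, 0.618 and 0.33 in D2A1, and 0.198, 0.147, 0.2 and 0 in EMT6. Hist1h1b was lower in the p27K high library of 12 of 12 tumours, with no overlap of the gates in D2A1 and EMT6. In D2A1 the 3 shallow p27K negative values rest on 1, 4 and 5 counts. The remaining pair were near the floor and untested. Hist1h1t, the testis form, had 15 counts in p27K negative and 35 in p27K high libraries of 4T07. Of the 35, 22 came from tumour 2, the library that stood apart. Hist1h1t had 0 and 2 counts in D2A1, and 6 and 4 in EMT6. Hist1h1a, which encodes H1.1, had 2 and 0, 6 and 4, and 9 and 1 counts, where the D2A1 libraries of unequal depth gave means of 0.510 and 0.0526 CPM.

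**Figure D3:**
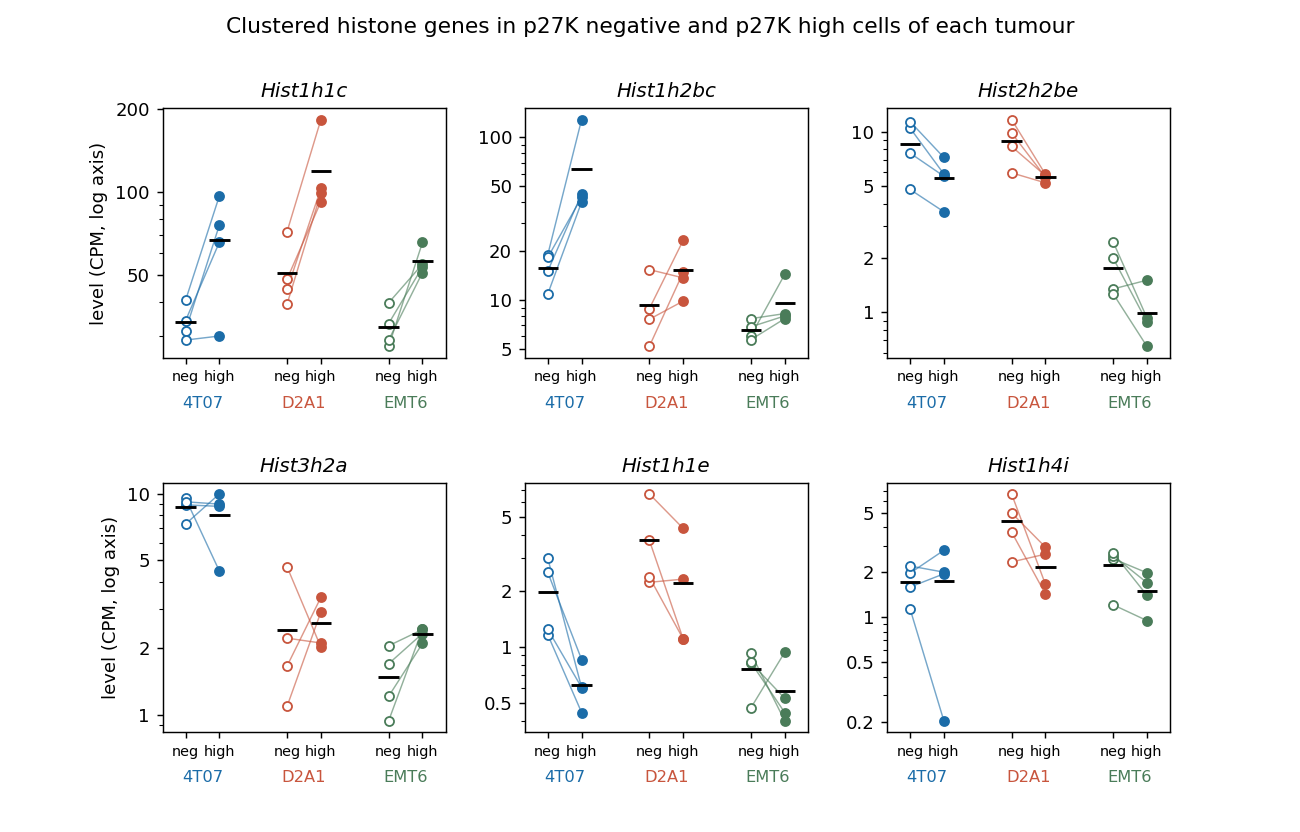
Level (y axis, CPM, log scale) of 6 clustered histone genes in p27K negative (open) and p27K high (filled) cells of each tumour, by line; lines join the 2 libraries of a tumour and black bars are gate means. Hist1h1c is higher in the p27K high library of all 12 tumours, Hist1h2bc in 11, and Hist2h2be is lower in 11.

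Among the H2B genes, Hist1h2bc rose and Hist2h2be fell. Hist1h2bc (2 exons, chr13:23684199-23692908, plus strand) had 10.9, 19, 15.1 and 18.3 CPM in p27K negative and 40.1, 129, 44.8 and 42.9 CPM in p27K high cells of 4T07, with no overlap. The 129 CPM belong to tumour 2, the library that stood apart. The change was 1.86 ± 0.23 (edgeR adjusted p = 0.000731), and 1.55 ± 0.11 without tumour 2. In EMT6 it had 6.03, 7.69, 5.71 and 6.85 CPM in p27K negative and 14.4, 8.26, 7.69 and 7.99 CPM in p27K high cells. The p27K high library of tumour 0 was far above the p27K negative range and the other 3 lay at or just above its upper end. The EMT6 change was 0.51 ± 0.18 (edgeR adjusted p = 0.0407), and 0.25 ± 0.12 without tumour 0 (edgeR adjusted p = 0.105); leaving out tumour 2 or 4 also ended the call (0.54 and 0.61), as did DESeq2's test (adjusted p = 0.0547). In D2A1 the levels were 5.19, 15.4, 8.85 and 7.62 CPM against 14.8, 13.7, 23.3 and 9.86 CPM, and the change of 0.61 ± 0.26 missed the threshold (edgeR adjusted p = 0.0940). Without tumour 2 of D2A1 it was 0.91 ± 0.28 and passed (edgeR adjusted p = 0.0326).

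Hist2h2be (1 exon of 2620 bases, chr3:96221119-96223738, plus strand) is the other H2B gene at a sizeable level and moved the opposite way. In 4T07 it had 4.8, 7.63, 10.5 and 11.4 CPM in p27K negative and 3.61, 5.68, 5.84 and 7.21 CPM in p27K high cells, lower within each of 4 tumours although the gates overlapped. The change was -0.59 ± 0.15 (edgeR adjusted p = 0.0141), and the call ended without tumour 3 (-0.50) or 4 (-0.57). In D2A1 it had 5.93, 11.7, 8.3 and 9.86 CPM against 5.22, 5.82, 5.72 and 5.62 CPM, with no overlap, and changed by -0.70 ± 0.24 (edgeR adjusted p = 0.0403). In EMT6 it had 1.35, 2, 1.27 and 2.46 CPM against 1.51, 0.885, 0.649 and 0.933 CPM, and changed by -0.83 ± 0.30 (edgeR adjusted p = 0.0447). In both of those lines the call ended when any of 3 of the 4 tumours was left out, with changes of -0.80, -0.59 and -0.65 without tumours 1, 2 and 4 of D2A1 and -0.72, -0.79 and -0.61 without tumours 1, 2 and 4 of EMT6. The direction was the same each time. DESeq2's test ended both calls (adjusted p = 0.0766 in D2A1 and 0.141 in EMT6).

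Of the other H2B genes none was called in a line. Hist1h2be had a change of 0.13 ± 0.28 in 4T07 (-0.10 ± 0.23 without tumour 2) and -0.82 ± 0.38 in D2A1, and Hist1h2bg of 0.10 ± 0.30 and 0.43 ± 0.57. Hist2h2bb had 0.947, 1.5, 2.56 and 1.87 CPM in p27K negative and 1.72, 3.29, 2.3 and 2.99 CPM in p27K high cells of 4T07 (log2 change 0.62 ± 0.28; edgeR adjusted p = 0.110) and was at 0 in both other tables, a gap between tables rather than a comparison. All of its 50-base stretches (100%) occur in other transcripts. Hist1h2bk was low but one-sided: it had 23 counts over the 4 p27K negative and 0 over the 4 p27K high libraries in 4T07, at least 7.21-fold lower against a floor of 3 counts over the group. In EMT6 the same gene had 23 and 0 counts, at least 7.37-fold lower. Of the 50-base stretches of Hist1h2bk, 74.2% occur in other transcripts.

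Among the H2A genes, Hist3h2a on chromosome 11 had the highest level. In 4T07 it had 7.3, 9.55, 8.92 and 9.21 CPM in p27K negative and 10, 4.47, 8.78 and 8.99 CPM in p27K high cells, where tumour 2 alone was low. In EMT6 it rose from 0.937, 2.05, 1.21 and 1.7 CPM to 2.44, 2.43, 2.1 and 2.33 CPM, with no overlap and a change of 0.68 ± 0.24 (edgeR adjusted p = 0.0382). That call ended without tumour 0, 2 or 4 (0.48, 0.66 and 0.77) and in DESeq2's test (adjusted p = 0.126). The change was -0.16 ± 0.24 in 4T07, turning to 0.14 ± 0.13 without tumour 2, and 0.38 ± 0.49 in D2A1. Exons of Trim17 overlap Hist3h2a on the same strand, and all 18 H2A genes have an annotated exon on the opposite strand, whose reads could not be told apart if strand was not used in counting.

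Hist1h2ae, the other H2A gene named for its level, was not tested within a line. It had 0.41, 0.352, 0.634 and 0.41 CPM in p27K negative and 0.198, 0.221, 0.15 and 0.291 CPM in p27K high cells of EMT6, without overlap. In D2A1 it had 6.67, 0.467, 1.11 and 1.15 against 0.703, 0.49, 0.927 and 0.165 CPM, where the highest value rests on 9 counts. Its levels in 4T07 were at most 0.394 CPM. Hist1h2ad was the H2A gene with the largest change tested in 4T07 (0.89 ± 0.36; edgeR adjusted p = 0.0788), and it passed without tumour 2 (1.08 ± 0.34; edgeR adjusted p = 0.0190). Hist1h2ap had 22 counts in p27K negative and 0 in p27K high libraries of EMT6, at least 7.05-fold lower. It was at 0 in every 4T07 library, and 93.1% of its 50-base stretches occur in other transcripts.

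The H3 genes were the least abundant class. Hist1h3d, the most abundant of them, had 0.367, 0.752, 0.722 and 0.495 CPM in p27K negative and 1.09, 0.893, 1.17 and 0.635 CPM in p27K high cells of 4T07, higher within each of 4 tumours (0.71 ± 0.37; edgeR adjusted p = 0.160). In D2A1 and EMT6 it did not pass the filter, and its p27K high library was lower in 3 and 4 of 4 tumours, with means of 0.584 and 0.454 CPM and of 0.350 and 0.132 CPM. Hist1h3c had 6, 3, 16 and 4 counts in the p27K negative libraries of 4T07 and 1, 0, 0 and 0 in the p27K high libraries. In EMT6 Hist1h3c had 5, 1, 3 and 9 counts against 1, 0, 0 and 1, and in D2A1 22 counts over the p27K negative and 7 over the p27K high libraries. Hist1h3g had 19 and 0 counts in the gates of 4T07, at least 5.95-fold lower in p27K high cells. These differences rest on few counts and had no test within a line.

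No H4 gene was called in a line. Hist1h4i, the most abundant, had 1.59, 1.14, 1.97 and 2.2 CPM in p27K negative and 1.95, 0.203, 2.8 and 2 CPM in p27K high cells of 4T07. Its change there was -0.21 ± 0.44, or 0.22 ± 0.23 without tumour 2, so the sign hung on that tumour. In D2A1 it had 6.67, 2.34, 4.98 and 3.71 against 1.66, 2.64, 2.94 and 1.43 CPM (-1.06 ± 0.39; edgeR adjusted p = 0.0587), and in EMT6 2.46, 2.58, 1.21 and 2.69 against 1.98, 1.7, 0.949 and 1.4 CPM (-0.56 ± 0.21; edgeR adjusted p = 0.0545). Hist2h4 leaned the other way in EMT6, with 0.937, 0.587, 0.865 and 0.995 against 2.04, 1.77, 0.949 and 1.28 CPM (0.79 ± 0.30; edgeR adjusted p = 0.0515), and had changes of 0.17 ± 0.57 in 4T07 (0.62 ± 0.37 without tumour 2) and 0.16 ± 0.45 in D2A1. Hist4h4, on chromosome 6, had 0.489, 0.251, 0.689 and 0.522 CPM in p27K negative and 0.233, 0.0406, 0.389 and 0.159 CPM in p27K high cells of 4T07, lower within each of 4 tumours (-1.32 ± 0.48; edgeR adjusted p = 0.0586). Its change was -1.03 ± 0.60 in D2A1, and it did not pass the filter in EMT6.

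The 4 genes listed for poly(A)-tailed transcripts therefore did not share a direction: Hist1h1c and Hist1h2bc had positive changes in every line tested, and Hist2h2be and Hist4h4 negative ones. Their summed level was 47.7 to 66.7 CPM in p27K negative and 116 to 165 CPM in p27K high libraries of 4T07. The 165 CPM belong to tumour 2, where Hist1h2bc made up 129 CPM, and the other p27K high libraries reached 148 CPM. It was 52.6 to 90.2 and 108 to 213 CPM in D2A1, and 35.1 to 49.8 and 59.6 to 81.9 CPM in EMT6.

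Members that did not pass the filter were mostly lower in p27K high cells. Of the untested members with at least 1 count, the p27K negative mean was the higher one in 35 of 40 in 4T07, 32 of 46 in D2A1 and 39 of 48 in EMT6. Among all untested genes with counts the p27K negative mean was the higher one in 62.0%, 45.9% and 47.1%. Over all members, the p27K negative libraries were above every p27K high library in 14 genes of 4T07, 5 of D2A1 and 9 of EMT6, where 16.4%, 8.11% and 10.2% of all genes with counts did so. The reverse held in 2 members of each line, against 12.5%, 8.71% and 8.11% of all genes: Hist1h2ad and Hist1h2bc in 4T07, Hist1h1c and Hist2h3c2 in D2A1, and Hist1h1c and Hist3h2a in EMT6. Of the 14 in 4T07, 12 had not been tested, among them 5 H3 genes (Hist1h3b, Hist1h3c, Hist1h3e, Hist1h3f and Hist1h3g).

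Summed by class, the H1 genes were higher and the H3 genes mostly lower in p27K high cells, the H3 genes on few counts. H1 summed to 34.9, 35.0, 49.4 and 38.4 CPM in p27K negative and 78.8, 32.8, 101 and 69.6 CPM in p27K high libraries of 4T07, higher in 3 of 4 tumours. In D2A1 the H1 sum had means of 58.7 ± 17.0 and 124 ± 44.1 CPM (SD, n = 4), and in EMT6 35.2 ± 5.11 and 57.6 ± 6.51 CPM, with no overlap in either line. Without Hist1h1c the sign turned: the other 5 H1 genes summed to 5.60 ± 2.44 and 3.45 ± 0.808 CPM in 4T07, 7.68 ± 2.74 and 4.23 ± 1.55 in D2A1, and 2.77 ± 0.588 and 1.27 ± 0.103 in EMT6. That sum was lower in the p27K high library of 12 of 12 tumours, by a mean log2 ratio of -0.63, -0.87 and -1.10. Hist1h1c alone thus set the sign of the H1 sum. It was left out after its rise was seen, and Hist1h1e and Hist1h1d, each called lower in a line, stayed in. A lower rest is therefore partly built into that choice. The shallow p27K negative sums of D2A1 without Hist1h1c rest on 8, 16 and 21 counts.

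The sum of the H2B genes was 31.0 ± 7.48 and 76.1 ± 44.2 CPM in 4T07, with no overlap, and 30.3 ± 9.01 and 54.1 ± 4.68 CPM without tumour 2. It was 25.7 ± 5.28 and 26.5 ± 6.85 in D2A1, and 10.8 ± 1.68 and 11.5 ± 3.68 in EMT6. The p27K high library had the higher sum in 4, 2 and 1 of 4 tumours. The mean log2 ratios of 0.03 in D2A1 and 0.05 in EMT6 turned negative without tumour 1 (-0.05) or 3 (-0.14) of D2A1 and without tumour 0 (-0.21) of EMT6. Without Hist1h2bc the sums were 15.2 ± 4.66 and 11.8 ± 2.30 CPM in 4T07, 16.4 ± 1.11 and 11.1 ± 1.76 in D2A1, and 4.26 ± 0.888 and 1.88 ± 0.518 in EMT6. The p27K high library was the lower one in all 12 tumours, with mean log2 ratios of -0.33, -0.58 and -1.20. Hist2h2be, called lower in every line, stayed in these sums as their most abundant gene, and sums without it were not taken. Hist1h2bc was left out after its rise was seen, so a lower rest is partly built in here too.

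H2A sums had mean log2 ratios of -0.18 in 4T07, -0.67 in D2A1 and -0.40 in EMT6, with overlapping gates in each line. Without tumour 2 the 4T07 ratio was 0.12, so its sign rested on that tumour, and without tumour 1 the D2A1 ratio was -0.42. H3 sums had ratios of -0.72, -0.94 and -1.22 and were lower in p27K high cells in 11 of 12 tumours at levels of at most 4.86 CPM. The exception was tumour 2 of D2A1, where the sums of 0.935 and 1.41 CPM rest on 2 and 23 counts. The p27K negative H3 sums of tumours 1 and 3 of D2A1 rest on 3 and 8 counts. In EMT6 the p27K high H3 sums rest on 21, 10, 8 and 9 counts. Without tumour 2 the D2A1 ratio was -1.45, and without tumour 4 it was -0.56. H4 sums had ratios of -0.67 ± 0.97 (SD), -0.49 ± 0.58 and -0.28 ± 0.22, overlapped in every line, and included a low value of 1.22 CPM in p27K high tumour 2 of 4T07. Without tumour 2 the 4T07 ratio was -0.20, without tumour 1 of D2A1 -0.32, and without tumour 4 of EMT6 -0.18. All members without Hist1h1c and Hist1h2bc summed to 40.0 ± 9.58 and 31.0 ± 5.39 CPM in 4T07, 47.8 ± 5.46 and 30.2 ± 5.68 in D2A1, and 18.1 ± 1.57 and 11.5 ± 3.24 in EMT6. This sum was lower in p27K high cells in 11 of 12 tumours. Hist1h1c and Hist1h2bc were left out after their rise was seen, while Hist2h2be and other members called lower stayed in. A lower rest is partly built into that choice. The members that end within 100 bases of the stem-loop summed to 3.96 ± 1.21 and 2.22 ± 0.710 CPM, 5.85 ± 2.36 and 3.84 ± 1.61, and 3.53 ± 0.963 and 1.33 ± 1.02, lower in p27K high cells in 12 of 12 tumours. Their mean log2 ratio in 4T07 was -0.85, and -0.55 without tumour 2. In D2A1 it was -0.58, and -0.29 without tumour 4, and in EMT6 it was -1.65. Tumour 2 of D2A1 had nearly equal sums of 2.80 and 2.76 CPM. The 3 shallow p27K negative sums of D2A1 rest on 7, 6 and 14 counts. These sums have no test, since the members were chosen with earlier results of these data known.

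**Figure D4:**
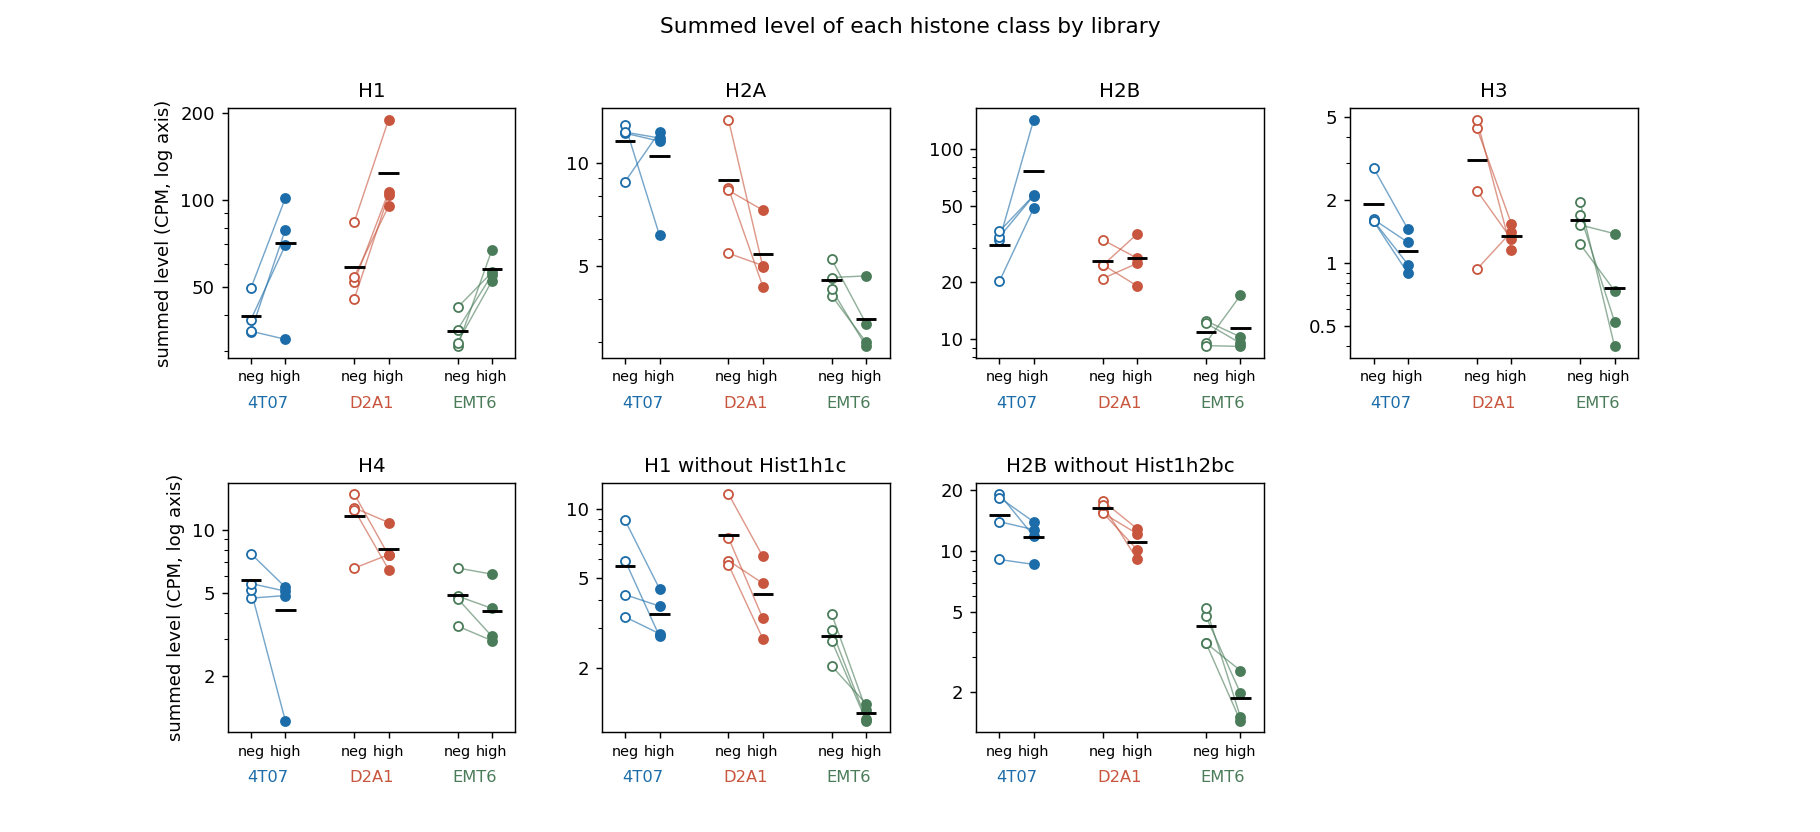
Summed level (y axis, CPM, log scale) of each histone class, and of H1 without Hist1h1c and H2B without Hist1h2bc, in p27K negative (open) and p27K high (filled) cells of each tumour; lines join the libraries of a tumour and black bars are means. H1 is higher in p27K high cells in 11 of 12 tumours and lower in all 12 once Hist1h1c is left out.

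A joint fit of all 24 libraries gave the average change over the lines for 22 members. Hist1h1c rose by 0.99 ± 0.10 (SE; edgeR adjusted p = 2.67e-07) and Hist1h2bc by 1.02 ± 0.15 (edgeR adjusted p = 2.25e-05), where 28.4% of all 13559 genes rose. A fall was called for 9 members, where 24% of all genes fell. Hist1h1b fell by 1.78 ± 0.29, Hist1h4k by 1.53 ± 0.36, Hist1h2ae by 1.21 ± 0.39, Hist1h4d by 1.07 ± 0.42, Hist1h1e by 0.93 ± 0.22, Hist4h4 by 0.88 ± 0.32, Hist2h2be by 0.68 ± 0.13, Hist1h4i by 0.56 ± 0.22 and Hist1h2be by 0.53 ± 0.20 on the log2 scale. They thus comprised 2 H1, 1 H2A, 2 H2B and 4 H4 genes. Hist1h4d had up to 0.864 CPM in p27K negative libraries and at most 0.461 CPM in p27K high ones. Since the low-count filter can pass a gene on a single gate, calls of members this low are tilted towards falls. The count of falls and its share are to be read with that limit. The count of falls ranged from 4, without tumour 1 of D2A1, to 12 as single tumours were left out, and the call for Hist1h2ae ended without that D2A1 tumour (edgeR adjusted p = 0.0603). Of 12 tumours left out in turn, 8 ended the call of Hist1h2be, 8 that of Hist1h4i, 7 that of Hist1h4d and 6 that of Hist4h4, with negative changes each time. Those of Hist1h1b, Hist1h4k, Hist1h1e and Hist2h2be held in all 12. The median change of the 22 was -0.55, and that of all genes 0.03. Hist2h2bb is among the 22 and enters that median, although its average change could not be estimated. It was at 0 in 2 of the tables.

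The change differed between the lines for 1 of the 22 members, where 24.5% of all genes differed. That was Hist1h2bc (edgeR adjusted p = 0.0107, or 0.0585 without the tumour block), with 1.86, 0.61 and 0.51 in 4T07, D2A1 and EMT6. Hist1h3d (edgeR adjusted p = 0.0713) and Hist1h1b (edgeR adjusted p = 0.0818) came next and missed the threshold. Hist1h1c, with changes of 0.89, 1.19 and 0.80, was not called for a difference (edgeR adjusted p = 0.366), which does not show that the lines respond alike. For Hist1h2bc the line cannot be told apart from the sequencing run. In 4T07, where its change was largest, the fibroblast marker sum given above was higher in p27K high cells and the macrophage sum lower. Of the 8 fibroblast markers tested there, 3 rose and 2 fell. In EMT6, where the change of Hist1h2bc was smallest, 6 of 8 tested fibroblast markers rose and 0 fell. The part of those cells in the difference between lines was not tested.

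Genes that act around histone synthesis, from lists made by function, are given for scale. Of 28 S-phase genes, 28, 27 and 28 fell in 4T07, D2A1 and EMT6 and none rose, with median log2 changes of -2.76, -2.13 and -2.17. On average Rrm1, a ribonucleotide reductase subunit, changed by -2.41 ± 0.05 and Pole, a DNA polymerase subunit, by -3.86 ± 0.08 (edgeR adjusted p = 4.09e-17 and 5.05e-17). Of 25 histone chaperone and assembly genes, 17, 15 and 18 fell and 3, 0 and 1 rose. Asf1b, which hands H3 and H4 to assembly factors, fell by 4.50 ± 0.09 and Chaf1a, a subunit of chromatin assembly factor 1, by 2.77 ± 0.06 on average.

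Of the histone mRNA processing genes, 12 of 22 fell and 1 rose in 4T07, 11 of 21 fell and 0 rose in D2A1, and 17 of 22 fell and 2 rose in EMT6. Slbp, which binds the stem-loop shown above, fell from 104 ± 2.67 to 57.1 ± 1.29 CPM in 4T07, from 96.5 ± 13 to 54.5 ± 4.63 in D2A1, and from 116 ± 6.34 to 62.2 ± 2.07 in EMT6 (SD, n = 4). Its average change was -0.83 ± 0.05 and that of Eri1, an exonuclease of the histone mRNA end, -0.82 ± 0.05 (edgeR adjusted p = 3.86e-10 and 2.83e-10).

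Replacement histones, whose genes lie outside the clusters and make tailed mRNAs, were far more abundant than the clustered genes, with summed levels of 1506 to 3904 CPM in a library. Of those tested, 8 of 10 fell in 4T07, 7 of 11 in D2A1 and 7 of 11 in EMT6, where 1 rose. H2afz, which encodes the variant H2A.Z, had 172 ± 2.01 and 38.9 ± 3.98 CPM in 4T07, 420 ± 32.9 and 138 ± 19.9 in D2A1, and 237 ± 16.1 and 72.3 ± 5.79 in EMT6. Cenpa, the centromeric H3 variant, had 104 ± 15.8 and 3.28 ± 1.17 CPM, 256 ± 13.9 and 15 ± 3.16, and 211 ± 5.50 and 15.8 ± 2.65. Their average changes were -1.79 ± 0.05 and -4.26 ± 0.08 (edgeR adjusted p = 1.11e-14 and 5.85e-17). The largest falls of called clustered genes, of 1.57 for Hist1h1e in 4T07 and 1.78 for Hist1h1b on average, were smaller than the median fall of the S-phase genes. Members that did not pass the filter are outside that comparison, and some fell steeply on few counts. Hist1h2bk, among them, was at least 7.21-fold lower in 4T07 and at least 7.37-fold lower in EMT6.

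**Figure D5:**
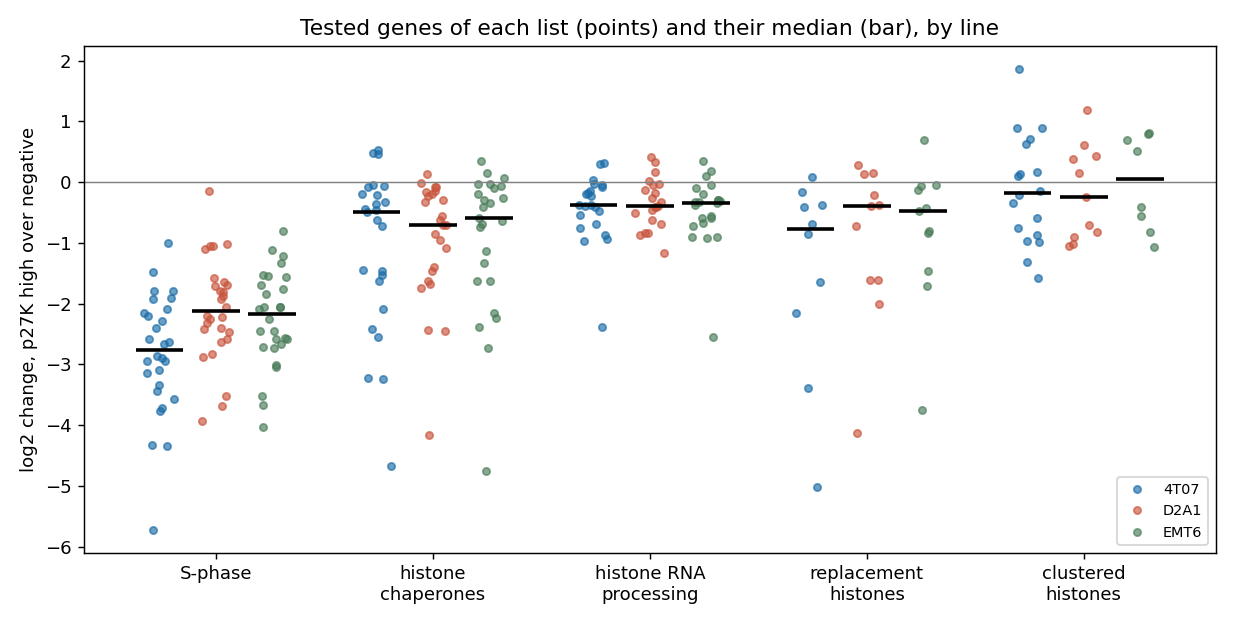
Log2 change in p27K high over p27K negative cells (y axis) of each tested gene of 5 lists (x axis), coloured by line; points are genes and bars are medians. S-phase genes lie below 0 throughout, while the clustered histone genes lie on both sides of 0.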

How the data were processed

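Per the labels' protocols, RNA was purified with a miRNeasy Micro kit, and GENEWIZ did the sequencing and the counting. The authors deposited whole-number counts per gene, not normalized, with 1 table for each line. The submitters' processing notes name mm10 and DESeq2. Of the library kit, strand use and alignment and counting tools, nothing is given in the sources used here. All 24 columns were used. Entries without a name (at most 0.0109% of a library) and a totals entry were left out. The 4T07 table held 24956 symbols after matching and the others 49016 each, with 24012 in all 3.

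Members and lists were chosen with earlier results of these data known. Hist1h2al and Hist1h2aj, annotated as pseudogenes, and Hist3h2bb-ps were left out. Genes named were the 2 most abundant members of each class, per line the called members of at least 1 CPM with the largest rise and fall, the 4 poly(A)-tail genes, and the 3 smallest p for a difference between lines; of each list the 2 smallest p for the average. Members named beside these were chosen after their values were seen.

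Counts were tested with edgeR 4.0.16 (R 4.3.3, limma 3.58.1): TMM scaling, default low-count filter, tumour as block, quasi-likelihood F test, Benjamini-Hochberg adjustment over all genes of the fit, called under 0.05. A standard error is the change over the square root of F. CPM values are TMM-scaled. The joint fit used 12 tumours as blocks and the genes of all 3 tables. The procedure was tested on simulated counts. Levels per kilobase used the longest coding transcript of GENCODE vM21. The tumour pairs come from the labels. The EMT6 columns carry numbers 0, 1, 2 and 4 that differ from the titles, and were paired by them because same-numbered libraries deviated together (r = 0.615, 0.573, 0.813 and 0.648 over 5000 genes). In 4T07 r was 0.801, 0.702, 0.609 and 0.195, and in D2A1 0.111, 0.210, 0.0829 and 0.295. Alternatives were no block, DESeq2 size factors, total-count scaling, DESeq2's test (1.42.0), no filter, a mean of at least 5 CPM, each tumour left out, pseudogenes kept and, for sums, leaving out Hist1h1c or Hist1h2bc or each tumour; those for sums and pseudogenes were added after seeing the data, apart from the scaling of sums. Errors and intervals cover the spread between tumours, and the number of counts behind a low CPM value limits it further.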

Additional observations from a re-analysis of the deposited data

Results flagged for a closer look

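In a screen of 72 groups of 4 libraries (the named members by line and gate), 8 groups had a library set apart from the other 3 by Dixon's criterion. For independent groups of normally spread values chance flags about 1 in 20. These groups share libraries and some rest on few counts, so that rate is only a rough scale. In the p27K high library of 4T07 tumour 2, Hist1h2bc was at 129 CPM and the others at 40.1 to 44.8, Hist2h4 was at 0.0406 CPM and the others at 0.744 to 0.826, and Hist1h2ae was at 0 and the others at 0.163 to 0.191. Hist1h1c was at 183 CPM in p27K high tumour 3 of D2A1, with 92.3 to 103 in the others. Hist1h2bc was at 14.4 CPM in p27K high tumour 0 of EMT6, with 7.69 to 8.26 in the others. Hist1h4i was at 1.21 CPM in p27K negative tumour 2 of EMT6, with 2.46 to 2.69 in the others. Hist1h2ae was at 6.67 CPM in p27K negative tumour 1 of D2A1 (9 counts), with 0.467 to 1.15 in the others. Hist1h3c was at 0.0233 CPM (1 count) in p27K high tumour 1 of 4T07 and at 0 in the others.

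The change of Hist1h2bc differed between the lines (edgeR adjusted p = 0.0107), at 1.86 in 4T07, 0.61 in D2A1 and 0.51 in EMT6. It was higher in the p27K high library of 4, 3 and 4 of 4 tumours.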

How the results depend on the processing

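Without a replicate block, that is without pairing the gates by tumour, 1 member rose and 1 fell in EMT6, none differed between lines, and Hist1h4i in 4T07 had a change of 0.022. Of all 13338 genes tested in EMT6, 2004 rose and 2459 fell then, and 1604 of 13559 differed between lines. The fit without the block also ended the calls of Hist2h2be in 4T07 and of Hist1h2bc, Hist2h2be and Hist3h2a in EMT6. Under total-count scaling 4 members fell in 4T07, where 3842 of all 12831 genes fell and the median of all genes moved to -0.14. Without a filter 4 fell in 4T07, 2 rose and 3 fell in D2A1, 8 fell in EMT6 and 17 fell on average. Of all genes, 3018 of 17903 fell in 4T07 at that setting, and 2513 rose and 1697 fell of 26329 in D2A1. In EMT6 3528 of 27016 genes fell, and on average 3190 of 19439. With a mean of at least 5 CPM, which tests fewer genes, 1 fell in 4T07, 0 in EMT6 and 1 on average. Over all genes 2551 of 10139, 2994 of 10188 and 2822 of 10423 fell. With DESeq2's test 0 fell in D2A1, where 1801 of 12829 genes fell. In EMT6 1 rose and 0 fell, where 2626 rose and 2773 fell of 13338 genes. With the pseudogenes kept 2 rose in D2A1, the second being Hist1h2al (1.66, edgeR adjusted p = 0.0150). Leaving out a tumour gave 1 to 3 rises and 1 to 2 falls in 4T07, 1 to 2 and 0 to 5 in D2A1, 1 to 3 and 1 to 3 in EMT6, 2 to 4 and 4 to 12 on average, and 1 to 2 members that differed. Over all genes the calls in both directions then numbered 3698 to 7710 in 4T07, 2434 to 5045 in D2A1 and 5082 to 6976 in EMT6. They numbered 6493 to 7627 on average, and 2498 to 3718 genes differed. Among the genes named by rule, signs turned in 4T07 for Hist1h4i (-0.52 to 0.22) and Hist3h2a (-0.37 to 0.14), both positive without tumour 2. They also turned for Hist2h4 (-0.23 to 0.62), negative without tumour 1. The signs of Hist1h1d and Hist1h2be, named beside these, turned in 4T07 without tumour 2 as well. Beyond what is stated, the cause was not tested. Depth limits D2A1 most, where 3 p27K negative libraries held at most 2105950 counts.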
